A study of Ovis aries with 15 samples.

Results

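The genes described here are a pair of hormones of fat cells and their receptors: ADIPOQ (adiponectin), LEP (leptin), ADIPOR2 (an adiponectin receptor) and LEPR (the leptin receptor). They were chosen by name in the deposited promoter tables and are 4 of the 18460 promoters listed for at least 1 of 3 histone marks. ADIPOQ, LEP and ADIPOR2 were 3 of 13222 promoters listed for H3K27ac, all 4 were among 12922 listed for H3K4me3, and LEP and LEPR were 2 of 6334 listed for H3K27me3. LEPR in H3K27ac, and ADIPOQ and ADIPOR2 in H3K27me3, have no listed value and were not analysed here. The gene identifiers in the tables are ENSOARG00000020509 for ADIPOQ, ENSOARG00000002407 for LEP, ENSOARG00000012807 for ADIPOR2 and ENSOARG00000010394 for LEPR.

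Chromatin immunoprecipitation followed by sequencing was done on whole perirenal fat, the depot around the kidney, of lambs and of fetuses near term. H3K27ac and H3K27me3 were each measured in 2 lambs and 2 fetuses, and H3K4me3 in 3 lambs and 2 fetuses, with 1 library per animal. The lambs were wild type purebred merino sheep, 80 days old by their stage label and 89 ± 7 days by the growth protocol, and had been reared with the ewe. The fetuses were wild type purebred merino sheep taken 132 days after conception (term 150 ± 3 days) from ewes on a maintenance diet. The protocol states that neither stage was treated, although the lamb library titles carry a tag, VEH, that is absent from the fetal titles, so the tag and stage cannot be told apart. Sex is not in the labels. In whole tissue, fewer cells of a type and less of a mark per cell cannot be told apart.

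Adiponectin is secreted almost exclusively by adipocytes and raises insulin sensitivity and fatty acid oxidation. It acts through ADIPOR1 and ADIPOR2, membrane proteins of the PAQR family that signal through AMP-activated kinase and PPARα. Leptin is released by white adipocytes in proportion to fat stores and acts, chiefly in the hypothalamus, through LEPR, a cytokine receptor that signals through JAK2 and STAT3. In sheep the perirenal depot is brown before birth and turns white after it. Acetylation of histone H3 at lysine 27 (H3K27ac) is found at regulatory elements in use, H3K4me3 at the start sites of genes that are transcribed or ready to be, and H3K27me3 is laid down by Polycomb complexes on genes held silent.

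Values below are scaled promoter values: the deposited signal of a promoter, rescaled so that the libraries of a mark are comparable (the steps are given with the processing). Changes are lamb minus fetus on the scale of log2(scaled value + 1). A promoter was called when its adjusted p from limma (Benjamini-Hochberg over the whole table of the mark) was under 0.05. By that rule 29.1% of H3K27ac promoters, 10.2% of H3K4me3 promoters and 13.2% of H3K27me3 promoters were called. Promoter reads numbered 5061861 to 6257855 per library for H3K27ac and 324662 to 430345 for H3K27me3. For H3K4me3 they numbered 9988032, 2476065 and 2542840 in lambs 1 to 3, against 11139936 and 17541582 in the fetuses.

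Adiponectin carried less H3K27ac in lambs, by about the same amount as other promoters of its level. The ADIPOQ promoter had 346 and 338 in lambs, against 425 and 486 in fetuses, so that the stages did not overlap. The means were 342 ± 5.68 in lambs and 455 ± 43.6 in fetuses (SD, n = 2 each), a change of -0.41 (SE 0.12, 95% interval -0.66 to -0.15, limma adjusted p = 0.0181). Lower calls were made at 17.7% of all H3K27ac promoters, and lower values with no overlap of the stages were found at 33.5%. The values rest on 816 and 647 reads in lambs and on 917 and 859 reads in fetuses. ADIPOQ stood high in this table in both stages, at the 95.2 percentile of all promoters in lambs and at the 95.7 percentile in fetuses. The call was lost without lamb 1 (adjusted p = 0.119), without lamb 2 (0.131) and without fetus 2 (0.0679), and held without fetus 1 (0.00151).

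H3K4me3 at ADIPOQ was lower in every lamb than in either fetus, but the difference missed the threshold. Its promoter had 292, 435 and 290 in lambs 1 to 3, against 491 and 577 in fetuses. The means were 339 ± 83.1 in lambs (SD, n = 3) and 534 ± 60.3 in fetuses (SD, n = 2), a change of -0.68 (SE 0.29, 95% interval -1.25 to -0.10, limma adjusted p = 0.0939). Lower values with no overlap of the stages were found at 22.8% of H3K4me3 promoters. The change was -0.79 without fetus 1, where it passed with a lone fetus left, and -0.56 without fetus 2, where it did not. It was -0.55, -0.87 and -0.58 without lamb 1, lamb 2 and lamb 3, and passed in none of these lamb settings (limma adjusted p = 0.168, 0.271 and 0.48). With cyclic loess it was -0.60 and did not pass either (limma adjusted p = 0.351). Lambs 2 and 3 had far fewer reads at this promoter, 180 and 124, against 486 reads in lamb 1.

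Leptin, the other hormone, was listed for all 3 marks, as were 1910 promoters or 10.3% of those listed for any. Its H3K27ac was low: 115 and 113 in lambs, against 138 and 142 in fetuses. The means were 114 ± 1.47 in lambs and 140 ± 2.89 in fetuses (SD, n = 2 each), a change of -0.29 that did not pass (SE 0.20, 95% interval -0.71 to 0.12, limma adjusted p = 0.266), although the stages did not overlap. LEP stood at the 10.8 percentile of H3K27ac promoters in lambs and at the 29.3 percentile in fetuses. With the deposited scaling kept, the change was -0.61 and passed (adjusted p = 0.0372), but under that scaling the median of all promoters was -0.30, against 0.02. With a scaling that removes a dependence of change on level (cyclic loess), the change was -0.53 and did not pass (limma adjusted p = 0.0672).

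H3K4me3 at LEP was 212, 365 and 269 in lambs 1 to 3, against 228 and 166 in fetuses. Lamb 1 lay between the fetuses, and lambs 2 and 3 lay above both. The means were 282 ± 77.1 in lambs (SD, n = 3) and 197 ± 43.6 in fetuses (SD, n = 2), a change of 0.50 that did not pass (SE 0.36, 95% interval -0.22 to 1.21, limma adjusted p = 0.296). The change was 0.27 without fetus 2 and 0.29 without lamb 2, and 0.72 without fetus 1.

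H3K27me3 at LEP was 364 and 396 in lambs, against 501 and 468 in fetuses. The means were 380 ± 22.7 in lambs and 484 ± 23.2 in fetuses (SD, n = 2 each), a change of -0.35 that did not pass (SE 0.20, 95% interval -0.77 to 0.06, limma adjusted p = 0.241), although the stages did not overlap. Lower values with no overlap were found at 29.3% of H3K27me3 promoters. LEP stood near the top of that table in both stages, at the 89.4 percentile in lambs and at the 90.0 percentile in fetuses. Among the 1910 promoters listed for all 3 marks, LEP was at the 94.9 percentile of H3K27me3 in lambs and at the 92.4 percentile in fetuses, and at the 19.9 percentile of H3K27ac in lambs and the 50.9 percentile in fetuses. The leptin promoter thus ranked high for the silencing mark and low to middling for the active mark in this tissue at both stages. Ranks between genes take the promoter windows as deposited, and the sources used here do not state their width.

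**Figure D1:**
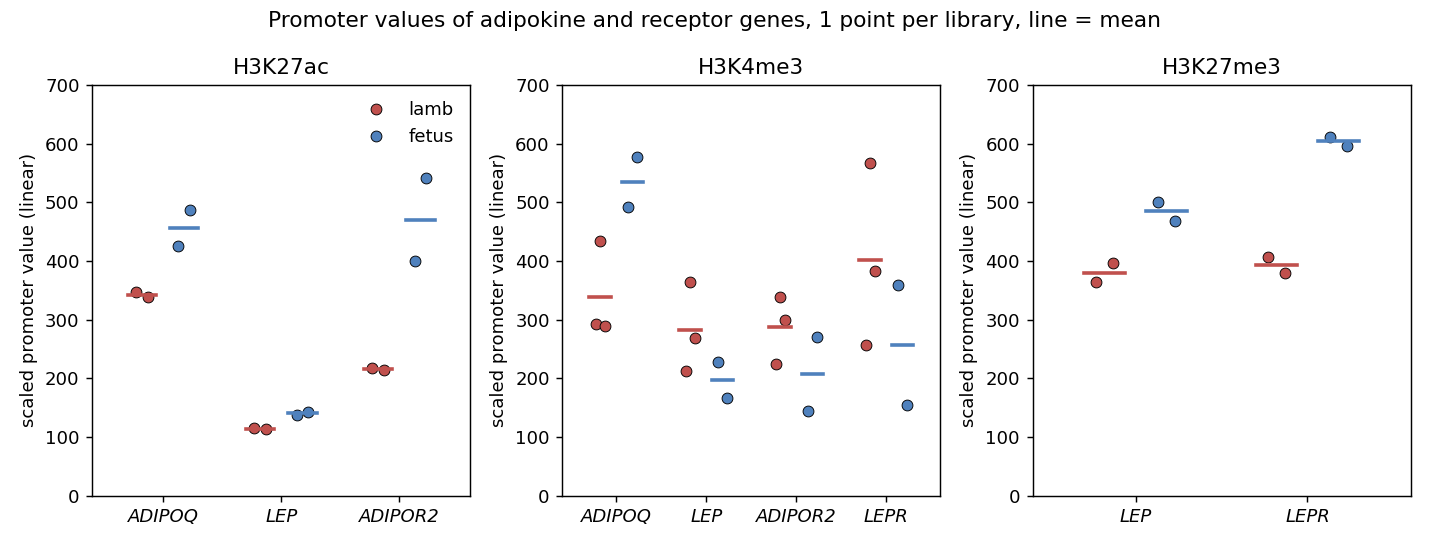
Scaled promoter value (linear axis) of each gene in every library, by mark, with lambs left of fetuses and a line at the mean of each stage. ADIPOR2 has the widest gap in H3K27ac (218 and 213 in lambs, 400 and 541 in fetuses), LEPR is lower in both lambs in H3K27me3, and the H3K4me3 values of LEP, ADIPOR2 and LEPR overlap between stages.

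The receptor ADIPOR2 had the largest H3K27ac change of the 3 genes listed for that mark. Its promoter had 218 and 213 in lambs, against 400 and 541 in fetuses. The means were 216 ± 3.41 in lambs and 470.4 ± 100.1 in fetuses (SD, n = 2 each), a change of -1.10 (SE 0.14, 95% interval -1.40 to -0.81, limma adjusted p = 5.13e-05). H3K27ac at ADIPOR2 thus fell to 0.465 of the fetal value in lambs. The promoter stood at the 62.0 percentile of the table in lambs and at the 96.1 percentile in fetuses. It passed under each of the 10 alternatives run, with changes between -1.43 and -0.81.

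H3K4me3 at ADIPOR2 overlapped between the stages. It was 225, 338 and 299 in lambs 1 to 3, against 144 and 270.2 in fetuses, and lamb 1 lay between the fetuses. The means were 287 ± 57.2 in lambs (SD, n = 3) and 207 ± 89.3 in fetuses (SD, n = 2), a change of 0.52 that did not pass (SE 0.36, 95% interval -0.20 to 1.24, limma adjusted p = 0.272). The change was 0.068 without fetus 1 and 0.97 without fetus 2, and 0.026 with cyclic loess scaling, which removes a dependence of change on level. In both marks fetus 2 was higher than fetus 1 at ADIPOR2. The same animals carry these numbers in each mark.

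The leptin receptor LEPR fell in H3K27me3. Its promoter had 406 and 379 in lambs, against 612 and 596 in fetuses, with no overlap. The means were 393 ± 19.1 in lambs and 604 ± 11.2 in fetuses (SD, n = 2 each), a change of -0.62 (SE 0.19, 95% interval -1.01 to -0.23, limma adjusted p = 0.0338), which is 0.651 of the fetal value. Lower calls were made at 8.83% of H3K27me3 promoters. These values rest on 124 and 92 reads in lambs and on 182 and 177 reads in fetuses, with a counting error of 7.41% to 10.4% per library. LEPR stayed among the strongest H3K27me3 promoters, at the 90.4 percentile in lambs and the 94.0 percentile in fetuses. The call was lost without fetus 1 (adjusted p = 0.296), without fetus 2 (0.313) and without lamb 2 (0.139), and held without lamb 1 (0.00575).

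H3K4me3 at LEPR varied most between animals. It was 256, 567 and 383 in lambs 1 to 3, against 359 and 154 in fetuses. The means were 402 ± 156 in lambs (SD, n = 3) and 256 ± 145 in fetuses (SD, n = 2), a change of 0.70 that did not pass (SE 0.34, 95% interval 0.01 to 1.38, limma adjusted p = 0.137). Here too the value depended on which fetus was used: the change was 1.30 and passed without fetus 1 (adjusted p = 0.000838), and was 0.090 without fetus 2. At LEPR fetus 1 was the higher fetus in H3K4me3, while at ADIPOQ and ADIPOR2 fetus 2 was. With the deposited scaling kept, under which the median of all H3K4me3 promoters was -1.28, the H3K4me3 changes were -0.59 for LEPR, -0.79 for LEP and -0.76 for ADIPOR2, and none of the 3 passed.

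In each mark the change of a promoter ran with its level: strong promoters tended to be lower and weak ones higher in lambs. Each gene was therefore set against the 500 promoters nearest to it in mean level of the same mark, as a description with no test. For ADIPOQ in H3K27ac those 500 had a median change of -0.41, the same as its own, and 58.0% of them were called lower. ADIPOR2 in H3K27ac differed from its neighbours in level, whose median was -0.29 and whose 5th to 95th percentile range was -0.89 to 0.27, with 5 of the 500 lower than it. LEP in H3K27ac was 0.56 below the median of its 500, which was 0.26, and 50 of them were lower.

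In H3K4me3 the order was different. ADIPOQ lay 0.55 below the median of its 500 (-0.13), with 16 of them lower, and just outside their 5th to 95th percentile range of -0.60 to 0.53. LEP and ADIPOR2 lay at the middle of theirs, with 258 and 276 of 500 lower and medians of 0.48 and 0.45. LEPR lay 0.52 above its median of 0.17, with 438 of 500 lower. In H3K27me3 the change of LEP equalled that of its neighbours in level (median -0.36, 260 of 500 lower). LEPR was 0.19 below its own (median -0.43, 139 of 500 lower), and 31.2% of these 500 were called lower.

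**Figure D2:**
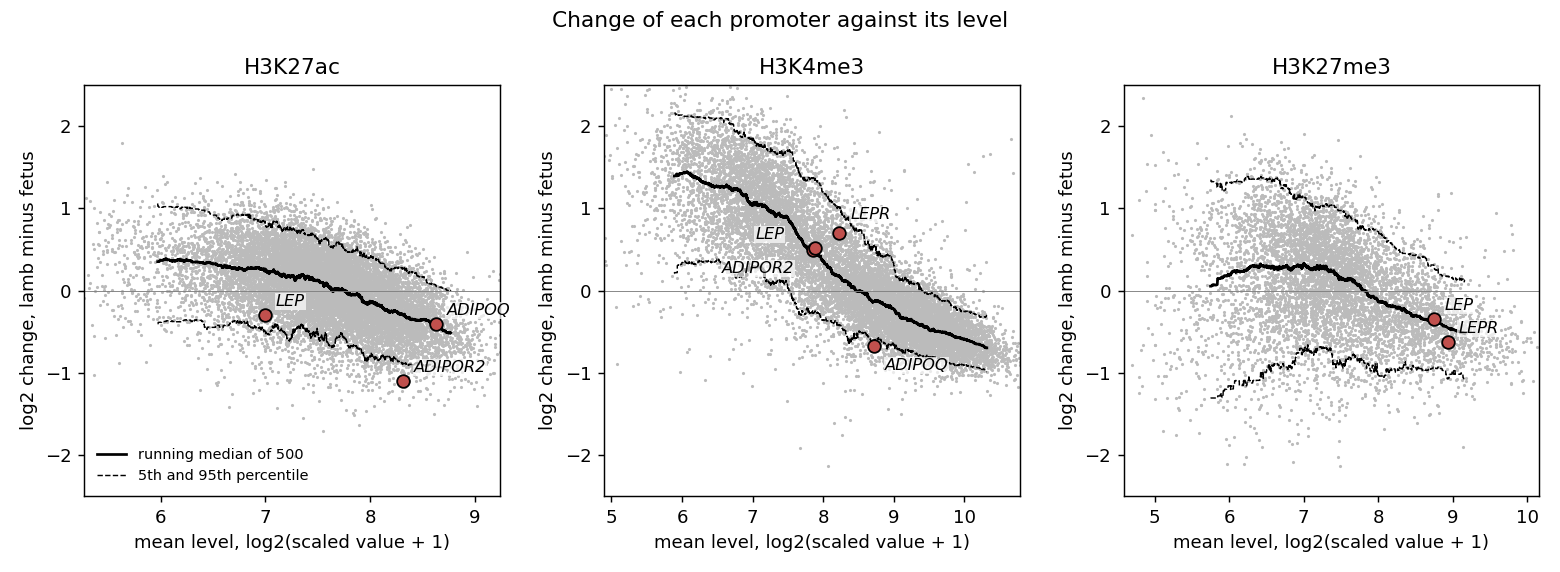
Change (lamb minus fetus, log2) of every listed promoter against its mean level (log2 of scaled value + 1), by mark, with a running median of 500 promoters and the 5th and 95th percentiles. ADIPOQ lies on the median in H3K27ac and below it in H3K4me3, ADIPOR2 lies below the 5th percentile in H3K27ac, and LEP and LEPR follow the downward course in H3K27me3.

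When this dependence on level was removed in the fit itself (cyclic loess scaling before limma), the H3K27ac change of ADIPOR2 was -0.81 and still passed (adjusted p = 0.0015). The H3K27ac change of ADIPOQ became 0.021 (adjusted p = 0.913), and the H3K27me3 change of LEPR became -0.19 (adjusted p = 0.577). Of the 3 calls among these genes, that of ADIPOR2 was thus the one that did not depend on how level was treated.

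**Figure D3:**
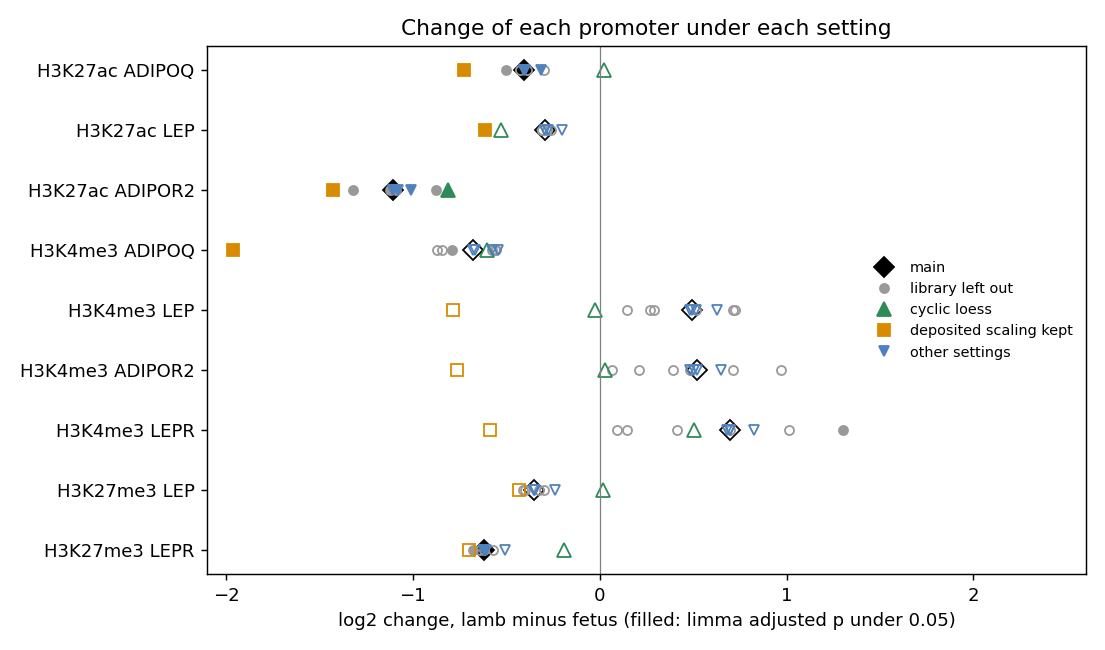
Change (lamb minus fetus, log2) of each gene and mark in the reported fit and under each alternative, filled where limma's adjusted p was under 0.05. The H3K27ac change of ADIPOR2 stays between -1.43 and -0.81 and is filled throughout, while cyclic loess brings the H3K27ac change of ADIPOQ to 0.021.

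Ratios of these genes within a library do not change when the whole library is scaled by a single factor. They do change under a scaling that depends on level, such as cyclic loess, and they still carry any dependence of change on level. In H3K27ac, ADIPOR2 over ADIPOQ was 0.630 and 0.631 in lambs, against 0.941 and 1.11 in fetuses, so that the receptor's promoter was lower relative to the hormone's in both lambs. LEP over ADIPOQ was 0.332 and 0.334 in lambs, against 0.325 and 0.292 in fetuses, nearly the same at both stages. With cyclic loess, however, the H3K27ac change was -0.53 for LEP and 0.021 for ADIPOQ. In H3K4me3, ADIPOR2 over ADIPOQ went the other way, at 0.772, 0.778 and 1.03 in lambs, against 0.293 and 0.469 in fetuses. LEP over ADIPOQ in H3K4me3 was 0.726, 0.839 and 0.927 in lambs, against 0.464 and 0.288 in fetuses. In H3K27me3, LEP over LEPR was 0.895 and 1.04 in lambs, against 0.819 and 0.785 in fetuses. An exact two-sided permutation test cannot give less than p = 0.333 with 2 against 2 libraries or 0.2 with 3 against 2, so these ratios were not tested.

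The authors' deposited table gives the same directions as the values above. In the authors' deposited table the fold change (negative where lower in lambs) was -2.17 for ADIPOR2 in H3K27ac with an adjusted p of 2.59e-09, and -1.33 for ADIPOQ in H3K27ac with 0.0132. For LEPR in H3K27me3 the authors' deposited table gives -1.54 with 0.0364. The remaining adjusted p values for these genes in the authors' deposited table ran between 0.0847 (ADIPOQ in H3K4me3) and 0.371 (ADIPOR2 in H3K4me3).

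The markers of the tissue moved too. Of 10 adipocyte markers (lipid droplet and fat synthesis genes), 9 were listed in H3K27ac and none of these was at 0 in any library. Of the 9, 5 were called lower and 0 higher in H3K27ac (limma, with 7 lower and 0 higher at an unadjusted p under 0.05), against 17.7% of all promoters called lower. Their summed value was 2136 to 2271 in lambs, against 3258 to 3563 in fetuses. The 5 called in H3K27ac (PLIN1, FABP4, LPL, GPAM and ACSL1) changed by -0.93 to -0.60. Promoters of like level were also lower in lambs, with medians of -0.48 to -0.17 for these 5 markers. In H3K4me3, 3 of 9 were called lower and 0 higher (6 lower and 0 higher unadjusted), against 1.9% of all promoters called lower, and the sum was 3472 to 3955 in lambs, against 5516 to 7259 in fetuses. The part of this shift in the lower values of ADIPOQ and ADIPOR2 was not tested.

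Some markers of immune cells were called higher in H3K4me3, the mark in which LEP, ADIPOR2 and LEPR had higher lamb means. Higher calls were made at 8.33% of all H3K4me3 promoters. Of 8 listed lymphocyte markers, 3 were called higher and 0 lower in H3K4me3 (5 and 0 unadjusted), with a sum of 1240 to 2168 in lambs, against 584 to 935 in fetuses. CD3D and CD3G, both called, had nearly the same values (193 and 192 in lamb 1, 94.7 and 97.5 in fetus 2), so they may not be separate evidence. Calls of single markers, of any cell type, were not followed with a library left out. Of 6 listed macrophage markers, 2 were called higher and 0 lower (4 and 0 unadjusted), with a sum of 1932 to 2347 in lambs, against 1197 to 1538 in fetuses. Against promoters of like level these markers were mixed: CD68 rose by 1.40 where the median of its 500 was 0.47, while CD2, at 1.07, and CD163, at 1.10, were not called and lay below their medians of 1.27 and 1.22. In H3K27ac, 3 of 7 lymphocyte markers were called higher and 0 lower (5 and 0 unadjusted), and 1 of 5 macrophage markers was called lower and 0 higher (1 and 2 unadjusted). Shares over all H3K27ac promoters were 11.4% called higher and 17.7% lower. In H3K27me3, beside the lower value of LEPR, a pair of endothelial markers was listed, of which 1 was called lower and 0 higher (2 and 0 unadjusted), and their sum was 465 to 585 in lambs, against 821 to 944 in fetuses. Over all H3K27me3 promoters 8.83% were called lower. The part of these markers in the receptor values was not tested.

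Over all promoters, 11.4% were called higher and 17.7% lower in H3K27ac, and 8.33% and 1.9% in H3K4me3. In H3K27me3 the shares were 4.42% and 8.83%. Stromal markers were mixed, with 2 of 10 called higher and 5 lower in H3K27ac, 1 of 9 higher and 1 lower in H3K4me3, and 0 of 2 in H3K27me3 (0 higher and 1 lower unadjusted). No listed marker of the 6 lists was at 0 in any library. Smooth muscle markers had 1 of 4 called in each direction in H3K27ac, and 0 of 3 in H3K4me3 (limma, 1 higher and 0 lower unadjusted). Endothelial markers had 3 of 8 called lower and 0 higher in H3K27ac (3 and 0 unadjusted), and 0 of 8 called in H3K4me3 (limma, 2 higher and 1 lower unadjusted). In H3K27me3, 1 of 7 lymphocyte markers was called higher, 1 of 4 macrophage markers was called lower, and 0 of 2 adipocyte and 0 of 4 smooth muscle markers were called (limma, 0 also unadjusted).

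The promoters most like each gene were found by the root-mean-square difference of their log2 values over all libraries of the marks that list it. For ADIPOQ, over 9 libraries and 10108 promoters, they were SMAF1 (0.175), SDC4 (0.203) and HIPK3 (0.267). SMAF1 had 279 in lambs and 445 in fetuses in H3K27ac, a change of -0.67 (limma adjusted p = 0.000655), and 334 in lambs and 600.3 in fetuses in H3K4me3, a change of -0.86 (adjusted p = 0.0428). With cyclic loess its H3K27ac change was -0.31 and did not pass (adjusted p = 0.0721). For ADIPOR2, over the same libraries, they were a copy of the small RNA gene U6 (0.177), a copy of SNORA14 (0.281) and PDLIM5 (0.290). PDLIM5 had 198 in lambs and 383 in fetuses in H3K27ac, a change of -0.95 (limma adjusted p = 0.000236). U6 and SNORA14 belong to families of near-identical copies, so reads may be shared among copies and their values are uncertain.

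For LEP, over 13 libraries and 1909 promoters, the nearest were SBSPON (0.326), the unnamed gene ENSOARG00000021390 (0.331) and EVC (0.333). None of these 3 was called in any mark, with limma adjusted p values from 0.0821 (SBSPON in H3K27me3) upward. For LEPR, over 9 libraries and 3521 promoters, they included ADAM22 (0.142) and FAM174B (0.202). In H3K27me3, ADAM22 had 461 in lambs and 648 in fetuses, a change of -0.49 that did not pass (limma adjusted p = 0.0804). FAM174B had 398 in lambs and 609 in fetuses, a change of -0.63 that did not pass either (0.0588).

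The genes next to these 4 on the sheep chromosomes were also read from the tables. Beside ADIPOQ, the sialyltransferase gene ST6GAL1 had more H3K27ac in lambs, with 225 in lambs and 142 in fetuses (change 0.68, limma adjusted p = 0.0112), a call lost without lamb 1 (0.294) and with the deposited scaling (change 0.36, 0.218). RFC4, on the other side of ADIPOQ, had 263 in lambs and 304 in fetuses (adjusted p = 0.221). Beside LEPR, the phosphodiesterase gene PDE4B fell in H3K27me3 like LEPR, with 120 in lambs and 251 in fetuses (change -1.06, limma adjusted p = 0.0235). PDE4B lost its call without fetus 1 (0.153), fetus 2 (0.419) or lamb 2 (0.135). SGIP1, the next gene beyond PDE4B, had 202 in lambs and 112 in fetuses in H3K27ac (change 0.84, limma adjusted p = 0.00218), a call lost without lamb 1 (0.0649) or lamb 2 (0.111) and with the deposited scaling (change 0.52, 0.0662). LEPROT, whose promoter LEPR shares in humans, was not listed and was not analysed here. The neighbours of LEP listed for H3K27ac, SND1 and RBM28, were not called in H3K27ac or H3K4me3, with adjusted p values from 0.243 to 0.551. LRRC4 and PRRT4, also beside LEP, were not called in H3K4me3 or H3K27me3 (limma adjusted p from 0.0747 to 0.834). The neighbours read beside ADIPOR2 were not listed for H3K27ac or H3K4me3. Of these, WNT5B, CACNA2D4 and LRTM2 were listed for H3K27me3 and not called (limma adjusted p from 0.0975 to 0.358).

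Among related genes, the other adiponectin receptor differed from ADIPOR2. ADIPOR1 had 161 and 137 in lambs, against 117 and 80.4 in fetuses in H3K27ac, a change of 0.61 that passed (limma adjusted p = 0.0479). It was called higher, as were 11.4% of H3K27ac promoters, while ADIPOR2 was called lower. ADIPOR1 lost its call without lamb 1 (0.505), lamb 2 (0.206) or fetus 2 (0.0839). It lost it also with cyclic loess (change 0.37, adjusted p = 0.269) and with the deposited scaling (0.29, 0.389). In H3K4me3 it had 184 in lambs and 103 in fetuses (change 0.95, adjusted p = 0.15), so that both receptors had a higher lamb mean there without passing.

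Of 27 receptors of other fat hormones or relatives of the adiponectin receptors, 16 were listed in H3K27ac, of which 1 rose (ADIPOR1) and 1 fell. Their median change was 0.11, against 0.02 over all promoters. The one that fell was KLB, the co-receptor for FGF21, with 178 in lambs and 339.8 in fetuses (change -0.92, limma adjusted p = 0.000398), and it passed under each of 10 alternatives. In H3K4me3, 1 of 14 rose and 0 fell (5 and 2 at an unadjusted p under 0.05), with a median of 0.35. Over all promoters 8.33% rose and 1.9% fell, with a median of 0.00, a comparison that takes no account of level. Medians of promoters of like level ran from -0.49 (for PAQR3) to 1.40 (for FGFR1) over these 14. The one that rose was PAQR6, a relative of the adiponectin receptors, with 382 in lambs and 165 in fetuses (change 1.19, limma adjusted p = 0.023). Promoters of its level had a median of 0.41. In H3K27me3, 1 of 6 rose and 0 fell (1 and 1 unadjusted), against 4.42% of all promoters that rose. It was CMKLR1, the chemerin receptor, with 165 in lambs and 70.6 in fetuses (change 1.23, limma adjusted p = 0.041), and it lost its call when any of the 4 libraries was left out (adjusted p from 0.106 to 0.472), with cyclic loess (0.145) and with the deposited scaling (0.0581).

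Of 40 other adipokines, 25 were listed in H3K27ac, of which 2 rose and 2 fell, with a median of -0.03. The shares over all promoters were 11.4% higher and 17.7% lower, both above those of this list (8.0% in each direction). C1QTNF2, a secreted relative of adiponectin, had 151 in lambs and 89.2 in fetuses (change 0.76, limma adjusted p = 0.0127). The growth factor IGF1 had 349 in lambs and 487 in fetuses (change -0.48, limma adjusted p = 0.00645), and IL1RN, which blocks the interleukin 1 receptor, had a change of -0.45 (0.029). Each of these 3 lost its call without lamb 1 (adjusted p = 0.224 for C1QTNF2, 0.13 for IGF1 and 0.359 for IL1RN). C1QTNF2 and IL1RN lost it also without lamb 2 (0.248 and 0.109). IGF1 lay at the 45.2 percentile of promoters of like level (median -0.44), and cyclic loess took it to -0.023 (adjusted p = 0.902). C1QTNF2 lost its call with cyclic loess (0.50, adjusted p = 0.102) and with the deposited scaling (0.44, 0.179), and IL1RN with column totals (-0.36, 0.0685). In H3K4me3, 2 of 22 rose and 0 fell (7 and 0 unadjusted), with a median of 0.51: FSTL1 had a change of 1.33 (limma adjusted p = 0.0156) and WISP2 of 1.45 (0.0188). The share that rose, 9.1%, was near the 8.33% of all H3K4me3 promoters, whose median was 0.00. That median takes no account of level. Promoters of like level had medians of 0.49 for FSTL1 and 0.80 for WISP2. Over the 22 these medians ran from -0.50 (for ADM) to 1.40 (for NRG4). In H3K27me3, 0 of 12 were called (limma, 0 also at an unadjusted p under 0.05), with a median of -0.07.

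**Figure D4:**
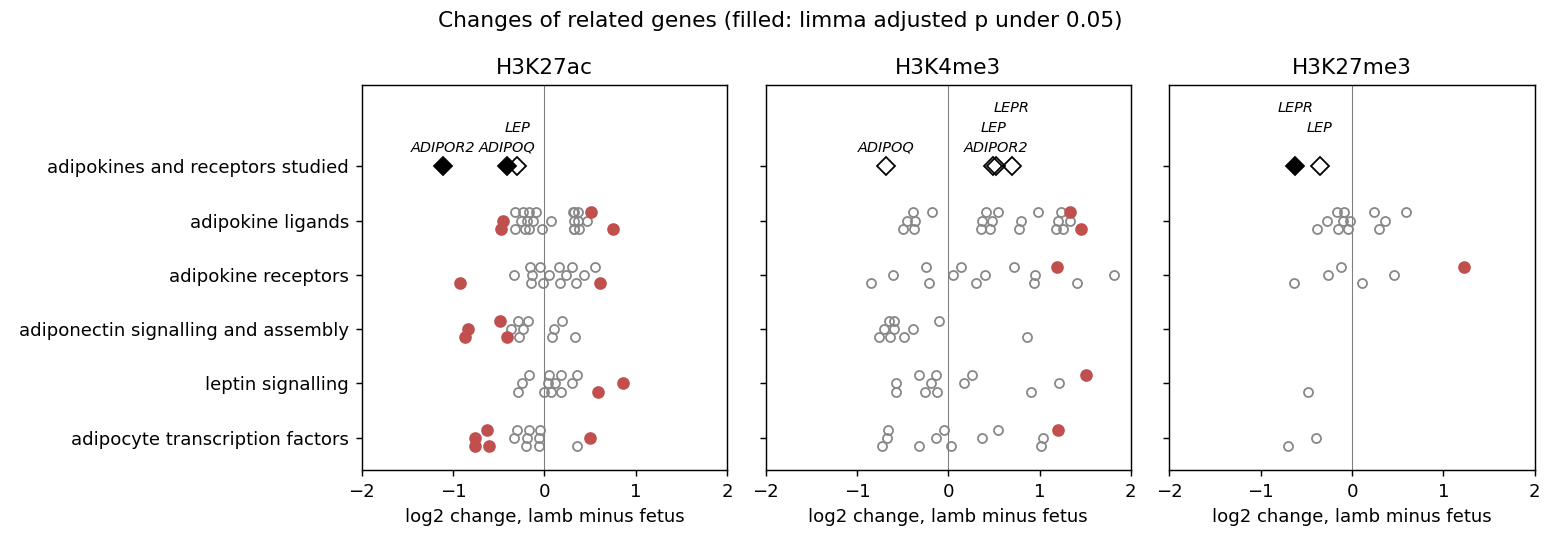
Change (lamb minus fetus, log2) of every listed gene of 5 related lists, by mark, 1 point per gene, filled where limma's adjusted p was under 0.05. In H3K27ac the called genes of adiponectin signalling and assembly (4 of 13, against 17.7% of all promoters called lower) lie left of 0, as do ADIPOR2 and ADIPOQ. GSTK1 of that list and ADIPOQ were at the middle of promoters of like level (53.0 and 50.0 percentile). The called genes of leptin signalling (2 of 14, near the share of all promoters called higher) lie right of 0.

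Of 13 genes of adiponectin signalling and assembly listed in H3K27ac, 4 fell and 0 rose (limma, 6 and 0 at an unadjusted p under 0.05), against 17.7% of all promoters that fell and 11.4% that rose, with a median of -0.28 against 0.02 over all promoters. PPARGC1A, a coactivator of mitochondrial genes, had 257 in lambs and 473 in fetuses (change -0.87, limma adjusted p = 0.00012). The deacetylase SIRT1 had 144 in lambs and 259 in fetuses (change -0.84, limma adjusted p = 0.00171). Both passed under each of 10 alternatives, and lay at the 5.4 and 1.2 percentile of promoters of like level. GSTK1 (DsbA-L), which helps assemble adiponectin, had 352 in lambs and 466 in fetuses (change -0.40, limma adjusted p = 0.0159), close to the middle of promoters of like level (53.0 percentile) and at 0.041 with cyclic loess. ERO1L, an oxidase of the same assembly step, had a change of -0.49 (limma adjusted p = 0.0153). GSTK1 and ERO1L lost their calls without lamb 1 (0.165 and 0.149) or lamb 2 (0.0969 and 0.144). In H3K4me3, 0 of 10 were called (limma, 5 lower and 0 higher at an unadjusted p under 0.05), with a median of -0.59. None of these genes was listed for H3K27me3.

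Genes of leptin signalling were mostly not called. In H3K27ac, 2 of 14 rose and 0 fell (limma, 3 and 1 at an unadjusted p under 0.05), with a median of 0.09. The share that rose, 14.3%, was near the 11.4% of all promoters. They were both tyrosine phosphatases that dampen the leptin receptor's signal: PTPN1 had 164 in lambs and 90.3 in fetuses (change 0.86, limma adjusted p = 0.00446), and PTPN2 had 195 in lambs and 129 in fetuses (change 0.59, 0.0192). Both lost their calls without lamb 1 (0.139 and 0.397) or lamb 2 (0.159 and 0.128). With the deposited scaling the changes were 0.54 for PTPN1 (adjusted p = 0.078) and 0.27 for PTPN2 (0.385), and PTPN2 also missed with cyclic loess (0.44, 0.0924). JAK2, the kinase bound to LEPR, had 304 in lambs and 371 in fetuses (adjusted p = 0.0843). In H3K4me3, 1 of 12 rose and 0 fell (2 and 1 unadjusted), and it was FOXO1, a transcription factor that insulin and leptin signals restrain (change 1.51, limma adjusted p = 0.0244). The share that rose, 8.33%, matched that of all H3K4me3 promoters. IRS1 was the 1 gene listed for H3K27me3, and it was not called.

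Of 14 adipocyte transcription factors listed in H3K27ac, 1 rose and 4 fell, against 11.4% of all promoters that rose and 17.7% that fell, with a median of -0.20. The ones that fell were the glucocorticoid receptor NR3C1 (change -0.76, limma adjusted p = 0.00633), ARNT (-0.76, 0.00112), SP1 (-0.63, 0.0174) and FOSL2 (-0.61, 0.0414), and ZNF423 rose (0.50, 0.0206). ARNT passed under each of 10 alternatives, and the others lost their calls without lamb 1 (adjusted p from 0.0922 to 0.274). SP1, FOSL2 and ZNF423 lost them also without lamb 2 (0.114, 0.408 and 0.234). FOSL2 also missed with column totals (change -0.52, 0.0755), and ZNF423 with cyclic loess (0.44, 0.0504) and the deposited scaling (0.18, 0.586). CEBPA, which activates the LEP and ADIPOQ promoters in mice, was listed and not called in any mark, and PPARG was not listed. In H3K4me3, 1 of 12 rose and 0 fell (2 and 3 unadjusted), and it was KLF15 (change 1.21, limma adjusted p = 0.0411). Here too the share that rose, 8.33%, matched that of all H3K4me3 promoters. In H3K27me3, 0 of 2 were called (limma, 0 also unadjusted), with a median of -0.55.

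The called H3K4me3 promoters FSTL1, WISP2, PAQR6, FOXO1 and KLF15 each lost their calls without lamb 2 (adjusted p from 0.139 to 0.311) or without lamb 3 (0.399 to 0.453), as did the other neighbour in values, SMAF1 (0.178 and 0.446). FOXO1, WISP2, KLF15 and SMAF1 lost them also without fetus 2 (0.0895, 0.1, 0.24 and 0.114), and KLF15 and SMAF1 without lamb 1 (0.0551 and 0.0835). With the deposited scaling the changes of PAQR6 and KLF15 were -0.10 and -0.074. With cyclic loess no H3K4me3 promoter was called by limma, these 6 included (1738 of all promoters at an unadjusted p under 0.05).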

How the data were processed

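Native chromatin of perirenal fat was precipitated with 10 µg of antibody per mark, per the labels' protocols. Mapping was to Oar_v3.1, per the labels. Tools named in the submitters' processing notes are MACS, edgeR and bedtools 2.19.0, with no role given. Pooled inputs have no values in the tables used here, and no input was subtracted. The promoter values the authors deposited are a scaled signal: each library holds whole multiples (within 0.02 reads) of 1 step, at 99.98% or more of values. Each listed promoter has a deposited value of 50.2 or more in at least 1 library, so that weaker promoters are not represented. The deposited peak tables hold counts per region and served for depth alone: 34871674 to 44096535 reads for H3K27ac, 12482468 to 58333449 for H3K4me3 and 7233767 to 10645917 for H3K27me3. The authors also deposited adjusted p-values and a signed score of fold change, per the file headers. Those headers are swapped for H3K27me3 promoters (p-value over fold change), judging by the values.

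Promoter values were divided by the library's column total times its TMM factor (edgeR 4.0.16), relative to the mean, and log2(value + 1) was fitted by limma with a trend (version 3.58.1, under R 4.3.3), lamb minus fetus, on each whole table, with Benjamini-Hochberg adjustment and a threshold of 0.05. The planned test of counts gave way to this because the values are scaled. A test on simulated data with 200 promoters changed per table was also run. It used a single spread setting and no dependence of change on level, so it does not bear on the calls reported here. Per the labels each library of a mark comes from its own animal, so a lamb and a fetus of the same number are unrelated by label. Same-numbered libraries of lamb and fetus deviated together with correlations of 0.277 (H3K27ac), -0.394 (H3K4me3) and 0.0988 (H3K27me3), and were not paired.

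Named were the 4 genes, the called genes of 5 related lists (up to 10 per list and mark), and the 3 promoters most alike to each gene. Of the genes this rule names, 2 are not reported here. The genes, lists and rules were chosen with earlier results of these data known. Chromosome neighbours came from the gene order of a RefSeq table of the ARS-UI_Ramb_v3.0 assembly, another build, used for names and order alone, and were added after the data were seen.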

Additional observations from a re-analysis of the deposited data

How the results depend on the processing

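With 2 or 3 libraries per stage, single libraries decided how many promoters were called (limma): without each H3K27ac library in turn, 1177 (without lamb 1) to 5846 (without fetus 1), against 3849 in all. For H3K4me3 it was 12 (without lamb 3) to 5680 (without fetus 1), against 1322, with 50 without lamb 2, 710 without fetus 2, and 0 without both shallow lamb libraries (102 at an unadjusted p under 0.05). For H3K27me3 it was 0 (without lamb 2, with 1797 at an unadjusted p under 0.05) to 1405 (without lamb 1), against 839, with 148 without fetus 1 and 100 without fetus 2. A lone library of a stage is then taken to vary like the other stage. The changes over these settings ran from -0.50 to -0.30 for ADIPOQ in H3K27ac, -0.87 to -0.55 for ADIPOQ in H3K4me3, 0.090 to 1.30 for LEPR, 0.068 to 0.97 for ADIPOR2 and 0.27 to 0.72 for LEP in H3K4me3, and -0.68 to -0.57 for LEPR in H3K27me3.

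Cyclic loess gave 2486 calls in H3K27ac, 0 in H3K4me3 (1738 at an unadjusted p under 0.05) and 394 in H3K27me3. It turned the change of ADIPOQ in H3K27ac to 0.021, of GSTK1 to 0.041, of LEP in H3K4me3 to -0.026 and in H3K27me3 to 0.019, and took LEPR in H3K27me3 to -0.19. The H3K27ac change of LEP became larger, at -0.53 (limma adjusted p = 0.0672). The deposited scaling gave 5678 calls in H3K4me3 (55 higher and 5623 lower, against 1077 and 245) and 540 in H3K27me3. Under it the H3K4me3 median was -1.28, and the changes there were -0.76 for ADIPOR2, -0.79 for LEP, -0.59 for LEPR, -0.074 for KLF15 and -0.10 for PAQR6. ADIPOQ in H3K4me3 was -1.96 (adjusted p = 0.0156), LEP in H3K27ac -0.61, and LEPR in H3K27me3 -0.70 (0.094). Column totals took LEPR in H3K27me3 to -0.51 (0.0779) and gave medians of 0.11, 0.13 and 0.13 for H3K27ac, H3K4me3 and H3K27me3, against 0.02, 0.00 and 0.02. They split the H3K27ac calls into 2314 higher and 1789 lower, against 1508 and 2341 (deposited scaling 167 and 4012), and the H3K27me3 calls into 435 and 368, against 280 and 559. The causes were not tested.

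With the replicate number as a block, calls were 5255 in H3K27ac, 3 in H3K4me3 and 1252 in H3K27me3. Crossing the pairing in H3K4me3, chosen after seeing the data, gave 1414. The alternatives of edgeR and DESeq2 on promoter reads were not run. The deposited values are scaled, and reads worked back from their steps served for depth and counting error alone. The limma fit gave each library the same weight whatever its depth.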
